A study of Mus musculus with 12 samples.

Results

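The transcripts of 42 genes of blood coagulation and of the complement system were measured by bulk RNA-seq in populations sorted from mouse fetal liver (FL). The genes were listed by name from their known functions, with earlier results of these data known. All 42 names were found among the 38127 genes counted in each library. Of these, 41 passed the low count filter in the fit of the E14.5 libraries, where *Cfb* did not, and all 42 passed it in the fit that compared E18.5 with E14.5.

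Every cell came from C57BL/6 embryos without a transgene or treatment and was sorted as Ter119-CD45-. The 4 populations, with 3 libraries each, were E14.5 CD54+CD31- cells, which the study named CD324+ and which include hepatoblasts, E14.5 CD54+CD31+ cells (CD31+, endothelial), E14.5 CD54-CD31-Kit+CD24+ cells (P2, described by the study as erythroid progenitors), and E18.5 CD54+CD31- cells. The study gives independent litters as the replicates of its E14.5 populations, whereas the labels do not say what the E18.5 replicates are, so the p-values of that comparison may measure technical spread. Total counts ranged from 40714017 to 64368883 per library. Levels are given as CPM, the counts scaled to a TMM-adjusted library size of 1000000.

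Coagulation is a cascade of plasma proteases and cofactors that ends with thrombin cutting fibrinogen into fibrin, and complement is a parallel cascade that coats and lyses targets after cleavage of C3. Hepatocytes secrete most of these proteins, and hepatoblasts are their fetal precursors. Endothelial cells make a smaller set, including the cofactor factor VIII in the liver and the anticoagulants that sit at the vessel wall. Several vitamin K-dependent proteins are matured in the cell of origin, so a transcript level is not a level of active protein.

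The upstream sequences of 4 members are shown because they come from genes on either side of the division described below: *Fgb*, *C8b*, and *F9* were lower in CD31+ than in CD54+CD31- cells and *Pros1* was higher. Each is the 250 bases before the RefSeq start on GRCm38.p6, 5′ to 3′ on the gene's strand, and in these genes that start is also the GENCODE start. Capitals mark matches, on either strand, to the letters of an HNF1 half-site (GTTAAT), an HNF4 core (CAAAGT), a C/EBP motif (TTGCNNAA), or an ETS motif (AGGAAG).
*Fgb*, chr3:83049864-83050113, minus strand: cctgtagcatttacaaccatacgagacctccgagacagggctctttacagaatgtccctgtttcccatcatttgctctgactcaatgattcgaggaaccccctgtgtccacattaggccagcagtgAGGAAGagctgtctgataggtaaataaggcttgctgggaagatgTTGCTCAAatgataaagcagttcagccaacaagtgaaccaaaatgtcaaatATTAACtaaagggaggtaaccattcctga
*C8b*, chr4:104766067-104766316, plus strand: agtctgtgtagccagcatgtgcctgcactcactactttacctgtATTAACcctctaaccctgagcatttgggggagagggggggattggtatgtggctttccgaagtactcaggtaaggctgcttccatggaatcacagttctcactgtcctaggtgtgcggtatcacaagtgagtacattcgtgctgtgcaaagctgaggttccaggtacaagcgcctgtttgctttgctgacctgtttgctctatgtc
*F9*, chrX:59999214-59999463, plus strand: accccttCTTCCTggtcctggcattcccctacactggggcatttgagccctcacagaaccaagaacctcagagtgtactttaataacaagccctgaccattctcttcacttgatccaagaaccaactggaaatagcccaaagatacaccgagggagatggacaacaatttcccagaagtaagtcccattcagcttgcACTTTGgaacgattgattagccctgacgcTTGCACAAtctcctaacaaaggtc
*Pros1*, chr16:62854057-62854306, plus strand: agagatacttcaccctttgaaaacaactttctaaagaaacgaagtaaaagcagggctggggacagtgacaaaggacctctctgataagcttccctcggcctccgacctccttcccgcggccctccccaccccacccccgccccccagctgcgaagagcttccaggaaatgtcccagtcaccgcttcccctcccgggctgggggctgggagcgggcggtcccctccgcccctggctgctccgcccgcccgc

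The *Fgb* window held an HNF1 half-site, a C/EBP motif, and an ETS motif, and *C8b* held only an HNF1 half-site. The *F9* window held an HNF4 core, a C/EBP motif, and an ETS motif, whereas *Pros1* held none of the 4. Windows were available for 33 of the 42 members. Each member gave 1 window, that nearest the GENCODE start, whereas the shares of all windows were not limited to 1 window per gene. The HNF1 half-site letters stood in 9 of the 33 (27.3%) and in 6.43% of the 32851 windows of all genes. The HNF4 core stood in 8 members (24.2%, against 12.6% of all windows) and the C/EBP motif in 10 (30.3%, against 9.56%). The ETS letters stood in 6 members (18.2%) and in 29.5% of all windows. Of the 5 members with a window that were higher in CD31+ than in CD54+CD31- cells, 0 held the HNF1 half-site, 2 the HNF4 core (*F8* and *Procr*), 1 the C/EBP motif (*Procr*), and 1 the ETS motif (*F13a1*). Of the other 28, these stood in 9, 6, 9, and 5. Among these 28, *F2*, *F7*, *F10*, *F12*, *Fgg*, *Cpb2*, *C6*, *C8g*, and *Mbl2* held none of the 4, unlike the 3 lower genes shown. A match is a match of letters only, and for *F8* and *Ahsg* the RefSeq start lay 2574 and 738 bases from the GENCODE start.

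The populations were checked with marker lists. The summed level of 12 hepatoblast markers, including *Alb*, *Afp*, and *Ttr*, was 76966–88184 CPM in E14.5 CD54+CD31- cells, 938–1029.9 in CD31+ cells, and 759–772 in P2 cells. The sum of 13 endothelial markers was 11484–12050 CPM in CD31+ cells and 47.8–77.2 in E14.5 CD54+CD31- cells. Several libraries stood apart from their group. P2 replicate 2 had an endothelial sum of 474 CPM against 70.0 and 127 in the other P2 libraries. In E14.5 CD54+CD31- replicate 2 the granulocyte sum was 139.9 CPM against 11.7 and 12.6. The E18.5 libraries, labelled as liver, held 15 lung epithelial markers at 26444, 12269.9, and 12350.4 CPM, including *Sftpc*, and E18.5 replicate 1 had a hepatoblast sum of 5624 CPM against 38081 and 49475.

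Each of the 42 members had counts in every E14.5 CD54+CD31- library. The members together took 2.07, 2.23, and 2.40% of the counts in these libraries, 0.136–0.144% in CD31+ cells, and 0.0307–0.0367% in P2 cells, so the ranges did not overlap. In bulk samples, fewer cells of a type and less RNA per cell cannot be told apart. Of the 42 members, 20 exceeded 100 CPM in each E14.5 CD54+CD31- library. The map of levels by gene and library shows this block of high values at the left.

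**Figure D1:**
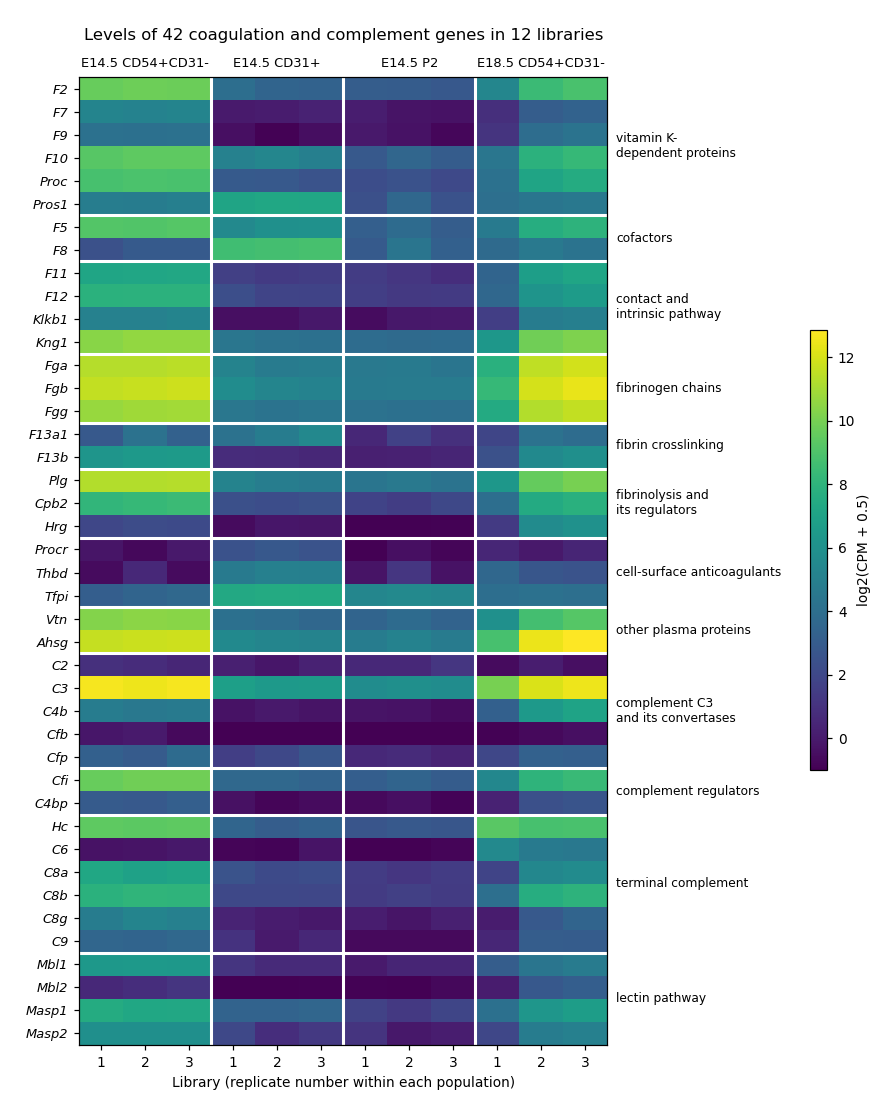
Levels of the 42 members (rows, grouped by role) in the 12 libraries (columns, 3 per population), as log2 of CPM plus 0.5. Most rows are brightest in E14.5 CD54+CD31- cells and in E18.5 replicates 2 and 3 and are dim in E18.5 replicate 1, whereas *F8*, *Pros1*, *Tfpi*, and *Thbd* are brightest in CD31+ cells.

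Levels of different genes were compared per kb of exon. *Ahsg*, which encodes the mineral-binding plasma protein fetuin-A, was the highest member in E14.5 CD54+CD31- cells, with 1561 ± 107 CPM per kb (SD, n = 3). *C3*, the central complement component, followed with 1225 ± 76.6 CPM per kb (SD, n = 3). The fibrinogen chains *Fgg*, *Fgb*, and *Fga* came next with 888 ± 58.6, 876 ± 55.1, and 874 ± 46.1 CPM per kb (SD, n = 3) and differed by less than their spread. *Plg*, the precursor of plasmin, had 667 ± 10.7 CPM per kb, and *Vtn*, vitronectin, had 660.1 ± 34.3 (SD, n = 3), again within their spread. *Kng1*, kininogen, had 460.2 ± 34.4 CPM per kb and *Cfi*, the protease that degrades C3b, 393 ± 32.5 (SD, n = 3).

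The leading members of the other role groups were lower. *F10*, the protease that activates prothrombin, led the vitamin K-dependent proteins with 244 ± 16.0 CPM per kb (SD, n = 3). *Hc*, which encodes complement C5, led the terminal components with 108 ± 3.71 CPM per kb, and the cofactor *F5* had 76.1 ± 2.98 (SD, n = 3). *Mbl1*, a mannose-binding lectin, had 53.6 ± 1.113 CPM per kb, and *F13b*, the carrier subunit of the fibrin-crosslinking enzyme, had 33.7 ± 3.67 (SD, n = 3). *Tfpi*, an inhibitor of the tissue factor pathway, led the cell-surface anticoagulants with only 1.92 ± 0.359 CPM per kb (SD, n = 3). At the bottom of the order stood *C6*, *Thbd*, *Cfb*, and *Procr*, with means between 0.0980 and 0.158 CPM per kb.

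Most members were lower in CD31+ than in E14.5 CD54+CD31- cells, and a small set was higher. In edgeR (quasi-likelihood test, adjusted p below 0.05 over the 15461 genes tested), 33 of the 41 members tested were lower in CD31+ cells and 6 were higher. Over all genes, 34% were lower and 31.7% higher, and the median log2 fold change was -0.03 against -6.02 for the members. The higher members were *F8*, *Thbd*, *Procr*, *Tfpi*, *Pros1*, and *F13a1*. Neither *C2* nor *C6* passed the test (adjusted p = 0.0525 and 0.224), although both passed it, as lower, without CD31+ replicate 3.

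**Figure D2:**
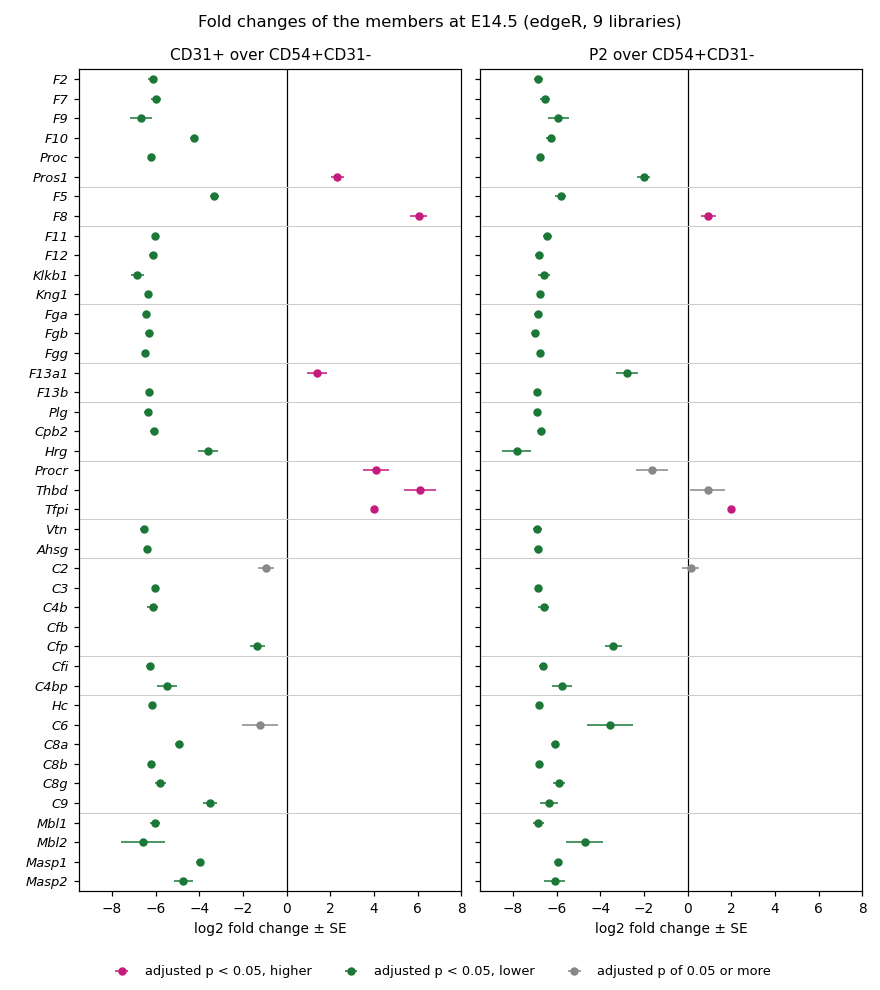
Log2 fold change (horizontal, with the SE) of each member in CD31+ (left) and P2 (right) over E14.5 CD54+CD31- cells, 3 libraries per population. Most of the lower members lie between -5 and -7 on the left, 6 members lie to the right of 0 there, and *Cfb*, which was not tested, has no point. Both panels use the same CD54+CD31- libraries.

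*F8*, the cofactor of the factor IX protease, was the highest member per kb in CD31+ cells. It had 397, 419, and 451 CPM in CD31+ libraries, 4.87, 6.99, and 7.01 in E14.5 CD54+CD31- libraries, and 7.24, 20.5, and 9.11 in P2 libraries. The CD31+ libraries lay far above all others. The log2 fold change of CD31+ over CD54+CD31- cells was 6.06 (SE 0.391, adjusted p = 3.08e-07). *F8* is on the minus strand of chrX:75172715-75382615 (GRCm38, GENCODE vM21). The other cofactor went the other way: *F5*, the partner of factor X, had 45.8, 62.1, and 63.1 CPM in CD31+ libraries and 574, 541, and 583 in CD54+CD31- libraries, a log2 fold change of -3.32 (SE 0.212, adjusted p = 2.9e-07).

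The cell-surface anticoagulants were higher in CD31+ cells in 3 of 3 cases. *Thbd* encodes thrombomodulin, which turns thrombin into an activator of protein C. It had 25.6, 32.6, and 30.6 CPM in CD31+ libraries and 0.170, 1.01, and 0.173 in CD54+CD31- libraries, without overlap (log2 fold change 6.10, SE 0.729, adjusted p = 3.42e-05). *Procr*, the endothelial protein C receptor, had 5.23, 6.49, and 5.25 CPM in CD31+ libraries and 0.368, 0.126, and 0.469 in CD54+CD31- libraries (log2 fold change 4.09, SE 0.585, adjusted p = 0.000129). *Tfpi* had 162, 179.5, and 169 CPM in CD31+ libraries and 8.43, 10.6, and 12.3 in CD54+CD31- libraries (log2 fold change 4.01, SE 0.136, adjusted p = 2.72e-09). *Thbd* lies at chr2:148404466-148408188 (minus strand), *Procr* at chr2:155751117-155755471 (plus strand), and *Tfpi* at chr2:84432855-84476775 (minus strand).

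The protein C pathway was thus split between the populations. *Proc*, the zymogen that thrombomodulin-bound thrombin activates, had 450.3, 484, and 475 CPM in CD54+CD31- libraries and 7.09, 6.81, and 5.34 in CD31+ libraries (log2 fold change -6.20, SE 0.161, adjusted p = 5.17e-10). *Pros1*, protein S, the cofactor of activated protein C, had 138, 154, and 149 CPM in CD31+ libraries and 28.5, 27.6, and 31.3 in CD54+CD31- libraries. The groups did not overlap (log2 fold change 2.33, SE 0.289, adjusted p = 4.56e-05), and it was the only vitamin K-dependent member higher in CD31+ cells. The other 5 such members were lower, with log2 fold changes from -6.68 for *F9* to -4.24 for *F10*.

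*F13a1*, the catalytic subunit of factor XIII, was the least separated of the 6. It had 18.5, 27.9, and 44.7 CPM in CD31+ libraries and 6.73, 18.3, and 9.48 in CD54+CD31- libraries, so the lowest CD31+ library was close to the highest CD54+CD31- library. The log2 fold change was 1.399 (SE 0.443, adjusted p = 0.0178). The call was lost without CD31+ replicate 3 and without CD54+CD31- replicate 1 or replicate 3 (adjusted p up to 0.0992, log2 fold changes from 0.93 to 1.81 with 1 library left out). *F13a1* is known from megakaryocytes and macrophages. The megakaryocyte markers summed to 362, 646, and 519 CPM in CD31+ libraries and to 50.1–62.9 in CD54+CD31- libraries, and 10 of 10 were higher in CD31+ cells. The macrophage markers went mostly the other way, with 7 of 12 lower and only *Mrc1* higher. Their sum of 1363–1637 CPM in CD31+ libraries, against 176–289, was mostly *Mrc1* (mean 1416 CPM against 27.8), which is also known from liver sinusoidal endothelium. The granulocyte sum was 159, 323, and 678 CPM in CD31+ libraries and 11.7, 139.9, and 12.6 in CD54+CD31- libraries, in the same order as *F13a1* in each population, and 5 of its 10 markers were higher and 1 lower in CD31+ cells. The part of these cells in the *F13a1* values was not tested. Its partner *F13b* was lower in CD31+ cells, with 1.17, 1.14, and 0.982 CPM against 74.8, 89.6, and 91.9 (log2 fold change -6.29, SE 0.144, adjusted p = 2.91e-10).

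**Figure D3:**
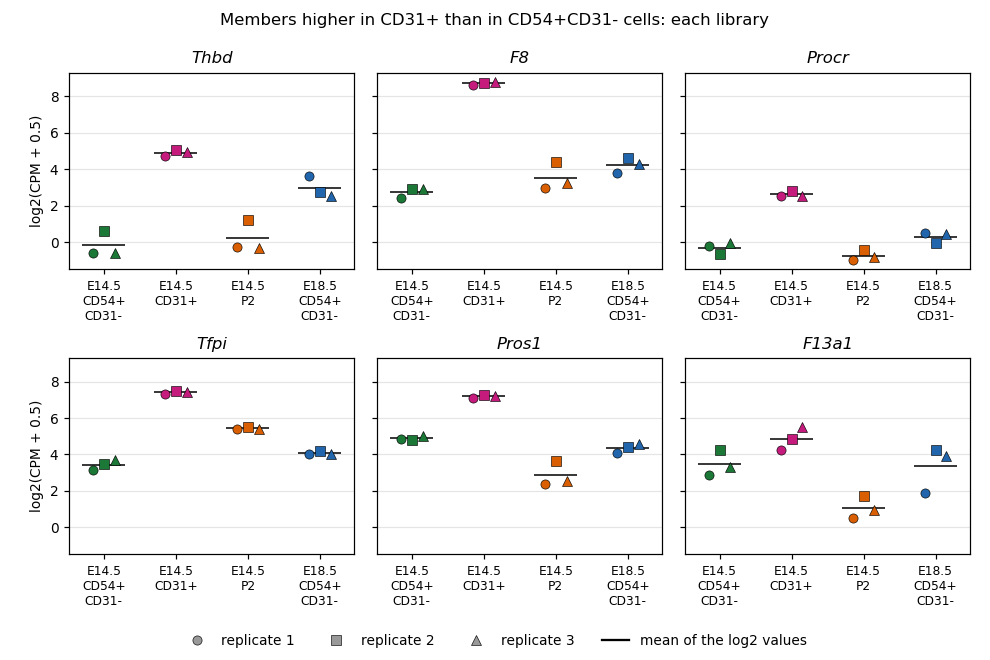
Level of the 6 members higher in CD31+ than in E14.5 CD54+CD31- cells, as log2 of CPM plus 0.5, in each library of the 4 populations (symbols mark the replicate number, lines the mean of the log2 values). *Tfpi* is nearly level across the P2 libraries at 41.0 to 45.1 CPM, whereas the other 5 are highest in P2 replicate 2.

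Of the 33 members that were lower in CD31+ cells, 19 fell by at least as much as the hepatoblast marker that fell least, and 14 fell by less. CD31+ cells had between 1.07 and 1.501% of the CD54+CD31- level of the 10 hepatoblast markers with at least 1 CPM there. Among the 33 lower members the median was 1.43% and the highest 39.8%. The 19 included the fibrinogen chains, at 1.12 to 1.26%, *Plg* at 1.23%, *Ahsg* at 1.20%, *Kng1* at 1.25%, *Cfi* at 1.31%, *Hc* at 1.41%, and *F2*, prothrombin, at 1.43%. In CD31+ libraries these members were therefore as scarce, relative to CD54+CD31- cells, as the hepatoblast markers, and whether CD31+ cells also transcribe them was not tested.

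The contact pathway proteins *F11*, *F12*, *Klkb1*, and *Kng1* were lower in 4 of 4 cases, with log2 fold changes from -6.83 to -6.00, and so were *Plg*, *Cpb2*, and *Hrg* of fibrinolysis (-6.36 to -3.60) and the regulators *Cfi* and *C4bp* (-6.26 and -5.47). *Kng1* has a near-identical neighbour and *Klkb1* an overlapping second identifier, so their counts are uncertain.

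The other 14 kept a larger share of their level than any of these markers, although *C3*, *F7*, *F11*, and *Mbl1* lay only just above the highest marker. *F5* was at 10.1% of the CD54+CD31- level, *C9* at 8.84%, *Hrg* at 8.23%, *Masp1* at 6.39%, *F10* at 5.31%, *Masp2* at 3.80%, and *C8a* at 3.25%. *F10* had 33.1, 41.2, and 31.5 CPM in CD31+ libraries against 615, 690.2, and 690.3 (log2 fold change -4.24, SE 0.194, adjusted p = 2.36e-08). *Masp1*, a protease of the lectin pathway, had 10.2, 10.1, and 11.3 CPM against 182, 155, and 159. The exons of *Masp2* overlap a gene on the opposite strand over 54.9% of their length, so its counts are uncertain if strand was not used. *Cfp*, properdin, which stabilizes the C3 convertase and is made by myeloid cells, stood at 39.8%, with 2.497, 3.55, and 5.93 CPM in CD31+ libraries and 8.97, 7.30, and 13.8 in CD54+CD31- libraries (log2 fold change -1.34, SE 0.331, adjusted p = 0.00492).

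Of the 16 complement members tested, 14 were lower in CD31+ cells and none was higher, while among the 25 coagulation members 19 were lower and 6 higher. *C3* had 113, 88.0, and 92.2 CPM in CD31+ libraries and 6446, 5857, and 6604 in CD54+CD31- libraries (log2 fold change -6.02, SE 0.139, adjusted p = 3.07e-10). *Mbl1* had 1.74, 1.05, and 1.06 CPM against 82.2, 85.6, and 84.8. In the terminal pathway 5 of 6 were lower, with *C6* as the exception. *C6* was scarce at E14.5, at 0.311, 0.315, and 0.420 CPM in CD54+CD31- libraries and 0.0718, 0.0535, and 0.317 in CD31+ libraries. *C2* and *Cfb*, the proteases of the classical and alternative convertases, were also close to absent in the hepatoblast population, *C2* with 1.41, 1.16, and 0.913 CPM and *Cfb* with 0.396, 0.504, and 0.148. *Cfb* had no count in any CD31+ library, which at 3 counts per library allows up to 0.0475 to 0.0539 CPM and makes its level at least 6.77-fold lower than in CD54+CD31- cells. Of the exon length of *C2* and *Cfb*, 42.8 and 79.5% is shared with *Gm20547* on the same strand, so their counts are uncertain.

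In P2 cells, too, most members were lower. Of the 41 tested, 36 were lower in P2 than in E14.5 CD54+CD31- cells and 2, *Tfpi* and *F8*, were higher, whereas 36.1% of all genes were lower and 33.8% higher. The median log2 fold change of the members was -6.55 and that of all genes -0.01. The same CD54+CD31- libraries served as the reference in this comparison and in that with CD31+ cells. With the authors' factors in place of TMM the median of all genes moved to -0.27 and the share of the calls that were higher from 48.3 to 38.2%.

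*Tfpi* was the one member well above the hepatoblast population in P2 cells. It had 41.0, 45.1, and 41.5 CPM in P2 libraries and 8.43, 10.6, and 12.3 in CD54+CD31- libraries, and the groups did not overlap. The log2 fold change was 2.00 (SE 0.127, adjusted p = 2.27e-07), and it was 1.97 without P2 replicate 2 (adjusted p = 1.66e-07). P2 cells thus held 24.1, 26.5, and 24.4% of the mean CD31+ level of *Tfpi*, while the endothelial marker sum was at 0.595, 4.03, and 1.08% of its CD31+ mean in the same libraries. Per kb, *Tfpi* ranked behind only *Ahsg*, *C3*, and *Fgg* in P2 cells.

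*F8* in P2 cells was highest in the library with the most endothelial RNA. The libraries were at 1.71, 4.86, and 2.16% of the CD31+ mean in replicates 1, 2, and 3. The log2 fold change over CD54+CD31- cells was 0.95 (SE 0.333, adjusted p = 0.0262). Without P2 replicate 2 it was 0.37 (adjusted p = 0.0680) and the call was lost, as it was without CD54+CD31- replicate 1 and with the authors' factors. *Thbd* had 0.322, 1.81, and 0.308 CPM and *Procr* 0, 0.229, and 0.0770 CPM in P2 libraries, and neither passed the test against CD54+CD31- cells (adjusted p = 0.334 and 0.0684). *Procr* passed it, as lower, without P2 replicate 2 (log2 fold change -2.92, adjusted p = 0.00662) and without CD54+CD31- replicate 2. *Pros1* was lower in P2 cells, with 4.73, 12.1, and 5.22 CPM (log2 fold change -2.01, SE 0.294, adjusted p = 0.000126), and so was *F13a1*, with 0.942, 2.73, and 1.41 CPM (log2 fold change -2.77, SE 0.495, adjusted p = 0.000519).

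The members lower in P2 cells kept a small share of their level. The 36 lower members had a median of 1.02% of the CD54+CD31- level, and 10 hepatoblast markers had between 0.670 and 1.36%. Of the 36, 24 were at or below the highest marker, and 12 were above it, namely *F5*, *F9*, *F13a1*, *C4bp*, *C6*, *C8a*, *C8g*, *Cfp*, *Masp1*, *Masp2*, *Mbl2*, and *Pros1*, which was highest at 25.2%. *Fgg* had 18.2, 17.0, and 16.4 CPM in P2 libraries against 1717, 1929, and 1931 in CD54+CD31- libraries (log2 fold change -6.78, SE 0.123, adjusted p = 9.05e-11). *Ahsg* had 28.2, 34.4, and 27.0 CPM against 3162, 3518, and 3607, and *C3* 52.5, 58.6, and 52.8 CPM. *Kng1* had 14.4, 13.5, and 14.2 CPM, *Plg* 20.7, 24.1, and 18.7, and *Cfi* 8.20, 10.5, and 7.74. Each of these 6 was within the range of the markers as a percent of CD54+CD31- cells, at 0.855 to 1.01%. *Cfb* had no count in any P2 library, which makes it at least 5.54-fold lower.

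Against CD31+ cells, 31 of the 41 members tested were lower in P2 cells and only *C2* was higher, with 39.4% of all genes lower and 34.3% higher. The number lower was 12 with all 12 libraries in one fit and 24 with only the 6 libraries compared. The authors' factors shifted the median of all genes from -0.13 to -0.50 and the share of the calls that were higher from 46.6 to 33.9%. All 6 members that were higher in CD31+ than in CD54+CD31- cells went down from CD31+ to P2 cells, from -2.01 for *Tfpi* (SE 0.124, adjusted p = 2.49e-07) to -5.74 for *Procr* (SE 0.656, adjusted p = 1.84e-05) on the log2 scale. *F8* had a log2 fold change of -5.11 (SE 0.37, adjusted p = 6.95e-07). The median over all 41 was -0.64, and for the hepatoblast markers it was -0.41, with 9 of 11 lower. *C2* had 0.988, 1.04, and 1.83 CPM in P2 libraries and 0.665, 0.410, and 0.745 in CD31+ libraries (log2 fold change 1.07, SE 0.381, adjusted p = 0.0265). Its call was lost without P2 replicate 3 or CD31+ replicate 2 and with the authors' factors.

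The E18.5 CD54+CD31- libraries were compared with the same E14.5 CD54+CD31- libraries, in a fit of their own. Of the 42 members tested, 5 were higher and 7 lower at E18.5, while 35.9% of all genes were higher and 33.5% lower. The median log2 fold change was -0.73 for the members and 0.03 for all genes. With the authors' factors the median of all genes moved to 0.27 and the share of the calls that were higher from 51.7 to 60.9%. Without E18.5 replicate 1, 11 members were higher and 19 lower, with 36.8% of all genes higher and 35.9% lower. Because of this difference, the fold changes of the called members are given with and without that library.

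**Figure D4:**
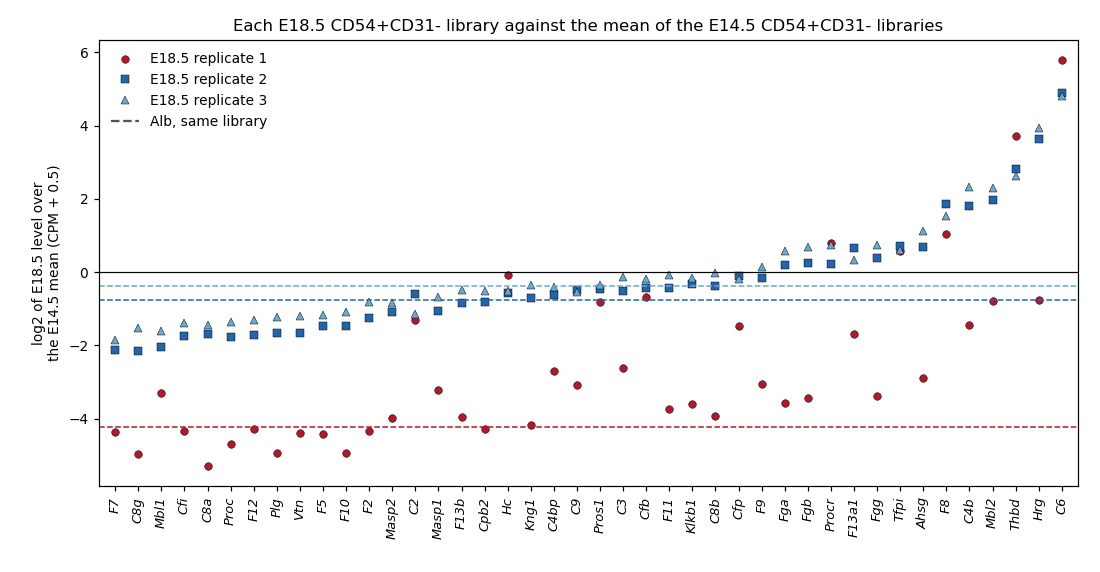
Log2 ratio of each E18.5 CD54+CD31- library to the mean of the 3 E14.5 CD54+CD31- libraries, CPM plus 0.5, for the 42 members in order of the mean of replicates 2 and 3. Dashed lines give the same ratio for *Alb*, and most members in replicate 1 lie near its lowest line, whereas *Hc*, *Procr*, *Thbd*, and *C6* lie above replicates 2 and 3.

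Replicate 1 was low in most members. Of the 39 members with a mean of at least 1 CPM at E18.5, 36 were lowest and 3 highest in that library. Among the members lower in CD31+ than in CD54+CD31- cells, 32 were lowest there, at a median of 0.0902 of the mean of replicates 2 and 3, and *Alb* was at 0.0787. The 3 that were highest in replicate 1 were *C6*, *Thbd*, and *Hc*. The lung marker sum was also highest in that library, and the part of lung cells in these values was not tested.

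*C6*, a pore-forming terminal component, had the largest increase. It had 46.2, 24.7, and 23.1 CPM at E18.5 against 0.311, 0.315, and 0.420 at E14.5 (log2 fold change 6.66, SE 0.401, adjusted p = 2.96e-05), and 6.24 without replicate 1 (adjusted p = 1.99e-08). *Thbd* had 12.04, 6.16, and 5.39 CPM against 0.170, 1.01, and 0.173 (log2 fold change 4.36, SE 0.736, adjusted p = 0.0018), and 3.91 without replicate 1 (adjusted p = 0.000271). *F8* had 13.5, 24.1, and 19.2 CPM (log2 fold change 1.78, SE 0.24, adjusted p = 0.000653) and *Tfpi* 15.8, 17.5, and 16.0 CPM (log2 fold change 0.84, SE 0.146, adjusted p = 0.00211). None of these 4 overlapped with E14.5. Without replicate 1 the log2 fold change was 1.95 for *F8* and 0.85 for *Tfpi* (adjusted p = 1.14e-05 and 0.00093).

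Markers of some other cell types were also higher at E18.5, including 15 of 15 lung epithelial markers, and those of others were not. Of the erythroid and megakaryocyte markers, 6 of 10 and 4 of 10 were lower and 0 were higher. Only 3 of 12 macrophage and 2 of 10 granulocyte markers were higher. The endothelial marker sum rose from 47.8–77.2 to 231–294 CPM and 13 of 13 markers were higher at E18.5. The stellate and mesenchymal sum was 4225–4459 CPM at E18.5 and 1169–1222 at E14.5. Of its 9 markers tested, 8 were higher at E18.5 and *Reln*, the largest of them at E14.5, was lower. *Reln* had 38905, 29560, and 42310 raw counts at E14.5 and 5668, 17124, and 20554 at E18.5. *Col1a1* had 1170, 2281, and 1574 at E14.5 and 111407, 125212, and 115552 at E18.5. Mesothelial markers summed to 615–1029.9 CPM at E18.5 and to 4.84–8.97 at E14.5. The E18.5 libraries held 40.7, 20.8, and 18.2% of the mean CD31+ level of *Thbd*, 3.20, 5.71, and 4.55% of that of *F8*, and 2.27, 2.496, and 1.96% of that of the endothelial sum. The part of any of these cell types in the increases was not tested.

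Among the members that were lower in CD31+ than in CD54+CD31- cells, *Hrg* increased most. *Hrg* encodes histidine-rich glycoprotein, which binds heparin and plasminogen. It had 2.01, 51.7, and 64.7 CPM at E18.5 against 3.31, 4.09, and 3.78 at E14.5, so replicate 1 lay below and the others far above E14.5. The log2 fold change was 3.58 (SE 1.07, adjusted p = 0.0219) with all libraries and 4.13 without replicate 1 (adjusted p = 5.36e-08), and the call was lost without E18.5 replicate 2 or 3 or any one E14.5 library (adjusted p up to 0.0790). *C4b*, the thioester protein of the classical and lectin pathways, had 9.04, 91.0, and 129 CPM against 28.0, 23.1, and 25.3. *Mbl2*, the other mannose-binding lectin, had 0.557, 6.61, and 8.39 CPM against 0.990, 1.29, and 1.68. Neither passed the test with all libraries (adjusted p = 0.0894 and 0.0604), and without replicate 1 their log2 fold changes were 2.28 and 2.67 (adjusted p = 2.61e-06 and 1.44e-05). *C4b* shares sequence with a near-identical copy, so its counts are uncertain.

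The fibrinogen chains and *Ahsg* were not called with all libraries. *Fgg* had 178, 2446, and 3091 CPM at E18.5 (log2 fold change 0.21, SE 0.838, adjusted p = 0.836) and *Ahsg* 461, 5537, and 7460 (log2 fold change 0.56, SE 0.828, adjusted p = 0.567). Without replicate 1 the log2 fold changes were 0.56 for *Fga*, 0.65 for *Fgb*, 0.74 for *Fgg*, and 1.09 for *Ahsg* (adjusted p = 0.00971, 0.00753, 0.00156, and 0.000472), all higher at E18.5. *Alb* itself was 40966, 46629, and 46678 CPM at E14.5 and 2405, 26609, and 34537 at E18.5.

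Among the members called lower, *F7*, *C8g*, *Mbl1*, *Cfi*, and *F12* had the 5 largest decreases. The hepatoblast marker sum was also lower, at 5624, 38081, and 49475 CPM at E18.5 against 76966–88184 at E14.5. The list was split, however. Of its 11 markers tested, 5 were lower, *Cdh1* and *Tdo2* were higher, and *Alb*, *Ttr*, *Apoa1*, and *Apob* were not called. Relative to *Alb* 12 members lay below their E14.5 range, and relative to the whole hepatoblast list 10. With that list without *Cdh1*, *Dlk1*, *Trf*, and *Tdo2*, chosen after seeing the data, 0 did. The part of hepatoblast content in the decreases was not tested. *C8a* and *Proc*, with log2 fold changes of -1.94 and -1.89, were not called (adjusted p = 0.0779 and 0.0523), although both values are below those of *Cfi* and *F12*. *F7*, the partner of tissue factor, had 1.33, 8.06, and 9.94 CPM at E18.5 against 38.4, 35.6, and 37.6 (log2 fold change -2.35, SE 0.63, adjusted p = 0.0139), and -1.88 without replicate 1 (adjusted p = 2.37e-06). *Mbl1* had 8.14, 20.1, and 27.2 CPM (log2 fold change -2.01, SE 0.393, adjusted p = 0.00354), and -1.66 without replicate 1 (adjusted p = 5.83e-06). *Mbl1* and *Mbl2* therefore went in opposite directions without that library. *C8g* had 0.542, 6.81, and 10.8 CPM against 27.5, 37.3, and 32.0 (log2 fold change -2.24, SE 0.842, adjusted p = 0.0497). *Cfi* had 42.8, 257, and 331 CPM against 789, 914, and 914 (log2 fold change -1.88, SE 0.651, adjusted p = 0.0376). *F12*, which starts the contact pathway, had 11.8, 72.5, and 97.4 CPM against 233, 242, and 244 (log2 fold change -1.81, SE 0.656, adjusted p = 0.0437). The calls of *C8g*, *Cfi*, and *F12* were lost without E18.5 replicate 2 and without any one of the E14.5 libraries (adjusted p up to 0.113). All 3 were also lost with the authors' factors. Those of *C8g* and *F12* were lost with a minimum of 10 counts in every library and without genes above 1% of a library. With DESeq2 size factors *C8g* was lost as well. Without E18.5 replicate 1 all 3 were lower, with log2 fold changes of -1.71, -1.399, and -1.33.

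*C2* and *Pros1* were the other members called lower. *C2* had 0.170, 0.595, and 0.249 CPM against 1.41, 1.16, and 0.913 (log2 fold change -1.59, SE 0.513, adjusted p = 0.029), and the call was lost without E18.5 replicate 3 or E14.5 replicate 1 or 2 (adjusted p up to 0.0917). *Pros1* had 16.3, 20.8, and 22.9 CPM against 28.5, 27.6, and 31.3 (log2 fold change -0.36, SE 0.135, adjusted p = 0.0489), a call that was lost in 13 of 14 alternatives. Without replicate 1 the log2 fold change was -1.29 for *C2* (adjusted p = 0.0422) and -0.25 for *Pros1* (adjusted p = 0.0521). Of the vitamin K-dependent members, *F2*, *F7*, *F10*, and *Proc* were lower without replicate 1, whereas *F9* had a log2 fold change of 0.15 (SE 0.122, adjusted p = 0.282).

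Members of the same complex gave different values at E18.5 without replicate 1. The chains of C8 are one example: *C8a* and *C8g* were lower, with log2 fold changes of -1.41 and -1.71, whereas *C8b* had -0.02 (SE 0.118, adjusted p = 0.906). The difference between the chains was not tested. *Hc*, whose product starts assembly of the same membrane attack complex, had 645, 452, and 476 CPM at E18.5 against 691, 650.5, and 690.1 (log2 fold change -0.18, SE 0.178, adjusted p = 0.396), and without replicate 1 the log2 fold change was -0.38 (adjusted p = 0.00787). *Plg* was lower without replicate 1 (log2 fold change -1.26, adjusted p = 0.000111), as were *F5* (-1.15, adjusted p = 3.31e-05) and *Vtn* (-1.23, adjusted p = 0.000102). The log2 fold change of *C3* was -0.15 (SE 0.181, adjusted p = 0.488) and that of *Kng1* -0.35 (SE 0.141, adjusted p = 0.0522).

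A further 55 genes of the same pathways were counted. In CD31+ against CD54+CD31- cells, 15 of the 49 tested (30.6%) were higher and 27 (55.1%) lower, beside 31.7% and 34% of all genes. *Cd93*, a C1q-binding receptor homologue of endothelium, had 694, 767, and 757 CPM in CD31+ libraries and 1.58, 4.31, and 3.87 in CD54+CD31- libraries (log2 fold change 7.82, SE 0.768, adjusted p = 7.64e-06). *Plau*, urokinase, *S100a10*, a plasminogen receptor subunit, and *Cd55*, a complement decay-accelerating factor, had log2 fold changes of 6.20, 4.99, and 4.78. The largest decreases were those of *C1s1* (-6.88), *Serpinf2* (-6.63), which encodes the plasmin inhibitor, *Serpinc1* (-6.08), which encodes antithrombin, and *Serping1* (-5.99), which encodes the C1 inhibitor.

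In P2 against CD54+CD31- cells, 8 of the 49 tested (16.3%) were higher and 33 (67.35%) lower, beside 33.8% and 36.1% of all genes. The higher genes included the regulators *Cd55* (log2 fold change 2.56), *S100a10* (2.11), *Cd46* (1.42), and *C1qbp* (1.1097). *F2rl1*, *Serpina10*, and *Serpinf2* led the lower genes with -7.83, -6.90, and -6.86, and *Serpina5*, with no count in P2 libraries, was at least 10.9-fold lower. Against CD31+ cells, 4 of 49 (8.16%) were higher in P2 cells and 33 (67.35%) lower, beside 34.3% and 39.4% of all genes. *C1qbp* had 436, 401, and 419 CPM in P2 libraries and 79.9, 104, and 88.7 in CD31+ libraries (log2 fold change 2.19, SE 0.114, adjusted p = 9.91e-08), followed by *Vkorc1l1* (1.28), *Lman1* (0.48), and *Cr1l* (0.21). The largest decreases were those of *Fcnb* (-5.91), *Plau* (-5.77), *Cd93* (-5.72), and *Colec12* (-5.49).

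At E18.5, 18 of the 50 tested (36%) were higher and 14 (28%) lower than at E14.5, which is close to the 35.9% and 33.5% of all genes. Without E18.5 replicate 1, 14 of the 27 other coagulation genes were higher and 9 lower, and of the 23 other complement genes 8 were higher and 7 lower. In that setting 36.8% of all genes were higher and 35.9% lower. *F3*, which encodes tissue factor and triggers coagulation, had 97.2, 58.4, and 55.0 CPM at E18.5 and 0.509, 0.661, and 0.617 at E14.5 (log2 fold change 7.07, SE 0.327, adjusted p = 1.69e-05). *Gas6* rose with a log2 fold change of 6.11, and *S100a10* with 3.50. *F3*, *Gas6*, and *S100a10* were highest in replicate 1, the library with the highest lung and mesothelial sums. *Serpinf2* (-3.41), *Serpina10* (-2.98), *Cd59a* (-2.70), and *Tfpi2* (-2.37) had the largest decreases among the genes called without overlap. Without replicate 1 the log2 fold changes were 6.74 for *F3*, 5.87 for *Gas6*, 3.25 for *S100a10*, -2.90 for *Serpinf2*, -2.49 for *Serpina10*, -2.42 for *Cd59a*, and -1.92 for *Tfpi2*.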

How the data were processed

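Bulk RNA-seq of 12 libraries of sorted FL cells was analysed. According to the submitters' processing notes and the study, reads from a stranded total RNA kit were trimmed with cutadapt 1.11, aligned to GRCm38 (mm10) with STAR 2.5.0a, and counted per gene with featureCounts 1.4.6-p3. Whether strand was used and how multiply aligned reads were treated is not given in the sources used here. The authors deposited raw counts and a second column, here called a score, which is the count times 1 factor per library. Only the counts were tested, and the score gave the authors' factor. Rows were matched by identifier, and GENCODE vM21 supplied positions and exon lengths.

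Tests used edgeR 4.0.16 in R 4.3.3 (TMM, filterByExpr, quasi-likelihood, Benjamini-Hochberg adjusted p below 0.05 over all genes), with population as the factor. One fit held the 9 E14.5 libraries, and a separate one the 6 CD54+CD31- libraries. Replicate pairs differed by more than sampling noise. Alternatives were DESeq2 1.42.0, other size factors and filters, a replicate block, all 12 libraries in one fit, and each library left out. Pipelines were tested on simulated data. Counts of 0 were given a limit of 3 counts per library, which covers counting error only.

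The members and gene lists were chosen with earlier results of these data known. Per-library values are given for members called higher in CD31+ or P2 than in CD54+CD31- cells, the highest member per kb of each role group, members called against their group, and the 5 largest changes per direction at E18.5. For the other pathway genes these are the 4 largest changes per direction without overlap, and not every gene so selected is reported here. Other members named were chosen after their values were seen. Promoter sequences are from RefSeq (GRCm38.p6), and no entry was used for *Proc*, *Kng1*, *Plg*, *Thbd*, *C2*, *C4b*, *Cfb*, *Cfi*, and *Masp1*. *Klkb1* has 2 identifiers, and 43.2% of its exon length is shared with the other.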

Additional observations from a re-analysis of the deposited data

How the results depend on the processing

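No call of a member changed direction in any alternative. In CD31+ against CD54+CD31- cells every alternative that tested the members kept 38 or 39 of the 39 calls, except that a minimum of 10 counts in every library left 31 members to test and kept 30. In P2 against CD54+CD31- cells, 1 member was higher with the authors' factors, and 1 to 2 with a library left out. In P2 against CD31+ cells, 0 were higher with the authors' factors and 0 were higher and 12 lower with all 12 libraries in one fit, and leaving out a library gave 0 to 1 higher. At E18.5 against E14.5, DESeq2 called 8 higher and 11 lower, all 12 libraries in one fit 15 lower, the authors' factors 3 lower, a minimum of 10 counts 4 lower, and leaving out genes above 1% of a library 4 lower. Leaving out a library of either age gave 4 to 11 higher and 2 to 19 lower, the upper values without E18.5 replicate 1 and the lower value of 2 without E14.5 CD54+CD31- replicate 1 or 2. The cause of these shifts was not tested. Libraries of the same replicate number had correlations of deviations between 0.0186 and 0.23. Those of unlike number were not compared, so these values cannot decide whether the numbers pair the libraries. With the replicate block 5 members were higher and 6 lower at E18.5, where *Hrg* and *Pros1* were no longer called. Of 1080 recomputed log2 fold changes of named members, 982 kept their side of the threshold, 75 lost it, and 23 gained it. CPM by the total count gave group levels of 0.774 to 1.19 times the TMM values. A level of 3 counts is 0.0388 to 0.0944 CPM, depending on the library, and lower levels could not be resolved.

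With *Alb* as the reference in each library, 19 members lay above and 12 below their E14.5 range at E18.5, and with the whole hepatoblast list 18 and 10. With a list without *Cdh1*, *Dlk1*, *Trf*, and *Tdo2*, chosen after seeing the data, 38 lay above and 0 below, so the number of members above depends on the reference. The shares over all genes were not computed on these scales, so the counts are not a result particular to the members.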
